A study of Mus musculus with 2 samples.

Results

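Dense clusters of EP300 binding were described in the liver of newborn mice. A dense cluster was defined on the authors' reproducible peak list by 3 steps. Peaks that overlapped by at least 1 base were merged and the one with the highest signal value was kept, neighbouring summits (the highest point of a peak) 12 kb or less apart were stitched together, and stretches of 8 or more summits were kept. The rule gave 123 dense clusters on mouse build mm10. They held 1194 of the 24502 merged peaks on chromosomes 1 to 19 and X, or 4.87% of them, and 6.98% of the summed signal. Before merging, the clusters held 1321 of 26844 listed peaks.

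The samples were 1 group of 2 replicates of chromatin immunoprecipitation sequencing (ChIP-seq), with an antibody to EP300, from the liver of newborn (0 days) mice of strain B6NCrl. Sex was not collected, no treatment or altered allele was given, and both replicates carried the same biosample and donor labels, so the spread between them is that between libraries. The labels do not say whether the tissue came from 1 animal or several. The lists give no read counts, so depth is unknown, and the authors' signal value, a score per peak whose scale is not stated, was compared only within a list.

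EP300 is a histone acetyltransferase that transcription factors bring to active enhancers and promoters, where it acetylates histones and other proteins. Genes with strong cell-type-specific expression often have several enhancers close together, as in the locus control region of the beta-globin genes. The liver around birth holds hepatocytes and also blood-forming cells, most of them of the red cell lineage, in which GATA1, TAL1 and KLF1 act. GATA factors bind the letters GATA with A or T before and A or G after them, called a GATA word here, and TAL1 binds E-boxes such as CAGATG, often beside a GATA site.

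Over the whole reproducible list, genes of both tissue components had summits nearby. At least 1 summit lay within 10 kb of a transcription start site (TSS) of 43 of 46 erythroid genes (93.5%) and of 24 of 26 genes for proteins that hepatocytes secrete (92.3%). The same was true of 2 of 15 muscle genes (13.3%), 2 of 15 neuron genes (13.3%) and 8322 of all 21646 protein-coding gene symbols (38.4%). Other lists were above the share of all genes too, among them megakaryocyte and platelet (75%), endothelial (63.2%) and immediate early genes (90%). Those of macrophages, lymphoid cells, stellate cells and bile duct were below it (23.5 to 31.25%). The lists were drawn up with earlier results of these data known. In bulk tissue, fewer cells of a type and less binding per cell cannot be told apart. Values at the globin and histone genes are uncertain, because the handling of reads from near-identical copies is not stated.

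The sequence around the strongest summit is shown for 7 clusters, because the clusters differed in what lay there. The first 3 are the strongest clusters near erythroid genes, the next 2 are the clusters near hepatocyte genes and the last 2 are the strongest of the rest. Each window is 120 bases of mm10, plus strand. Capitals mark a GATA word on either strand, except in the Apoe cluster, where they mark a DR1 element, the direct repeat bound by nuclear receptors such as HNF4A. The Picalm window has its GATA word at 51 to 56 bases after the summit, just outside the 50 bases searched below, and the Cd24a window has none.
Beta-globin control region, chr7:103877250-103877369: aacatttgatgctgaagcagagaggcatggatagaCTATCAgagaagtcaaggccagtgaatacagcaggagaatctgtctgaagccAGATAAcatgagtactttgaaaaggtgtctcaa
Nprl3, chr11:32251028-32251147: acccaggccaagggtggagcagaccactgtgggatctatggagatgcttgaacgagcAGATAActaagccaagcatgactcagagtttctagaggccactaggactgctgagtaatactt
Cd24a, chr10:43609641-43609760: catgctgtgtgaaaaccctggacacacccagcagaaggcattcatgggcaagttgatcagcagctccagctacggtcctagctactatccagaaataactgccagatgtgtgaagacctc
Apoe and Apoc genes, chr7:19685475-19685594: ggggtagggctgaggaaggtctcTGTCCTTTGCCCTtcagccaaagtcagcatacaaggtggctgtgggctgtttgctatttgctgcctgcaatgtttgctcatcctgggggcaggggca
Ahsg, chr16:22881574-22881693: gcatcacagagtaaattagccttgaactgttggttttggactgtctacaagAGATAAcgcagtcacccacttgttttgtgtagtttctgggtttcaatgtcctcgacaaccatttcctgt
Picalm, chr7:90062988-90063107: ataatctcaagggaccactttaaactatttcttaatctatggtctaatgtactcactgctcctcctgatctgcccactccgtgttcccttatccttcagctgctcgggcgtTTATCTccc
Tbxas1, chr6:38910960-38911079: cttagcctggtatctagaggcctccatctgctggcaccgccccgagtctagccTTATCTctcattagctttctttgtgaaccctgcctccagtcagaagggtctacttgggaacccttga

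In the beta-globin window the second GATA word closed a GATA and E-box composite, the arrangement bound by TAL1 together with GATA1. The Ahsg window held such a composite too. As searched here, a composite is CTG, the end of an E-box, a short distance before a GATA word. A whole E-box was not required, and neither of these matches contained one. The GATA word of the Nprl3 window covered the summit itself, at 3 bases before to 2 bases after it, with an AP-1 word, TGAGTCA read on the other strand, at 15 to 21 bases after it. A match shows only that the letters are there, and names no bound protein.

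The commonest size was the lower limit of the rule. There were 54 clusters of 8 summits, 25 of 9, 13 of 10, 11 of 11 and 8 of 12, and the remaining 12 had 13 to 27 summits. The distance from first to last summit was 12.9 kb in the shortest cluster, 32.2 kb in the median and 91.6 kb in the longest, 4267 kb in total or 0.162% of the genome. Clusters lay on 19 chromosomes, with the highest number (12) on chromosome 2 and 0 on X. The median distance between neighbouring summits was 3.05 kb in the clusters, against 3.95 kb in stretches of 2 to 7 summits; the rule itself used this spacing. Just inside the limit, the 54 clusters of 8 summits had a summed signal of 306 at the lowest, 681 in the median and 2149 at the highest. Just outside it, the 72 stretches of 7 summits had 253, 486 and 1332.

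The number of summits did not set how much signal a cluster held. The summed signal was 306 in the lowest cluster, 765 in the median and 2576 in the highest, and its Spearman correlation with the number of summits was 0.31 over the 123 clusters, a description in which larger clusters sum more values. Of the 10 stretches of any size with the highest summed signal all 10 were dense clusters, and of the top 50 so were 34. The weakest dense cluster ranked 1031 among all 14797 stretches.

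**Figure D1:**
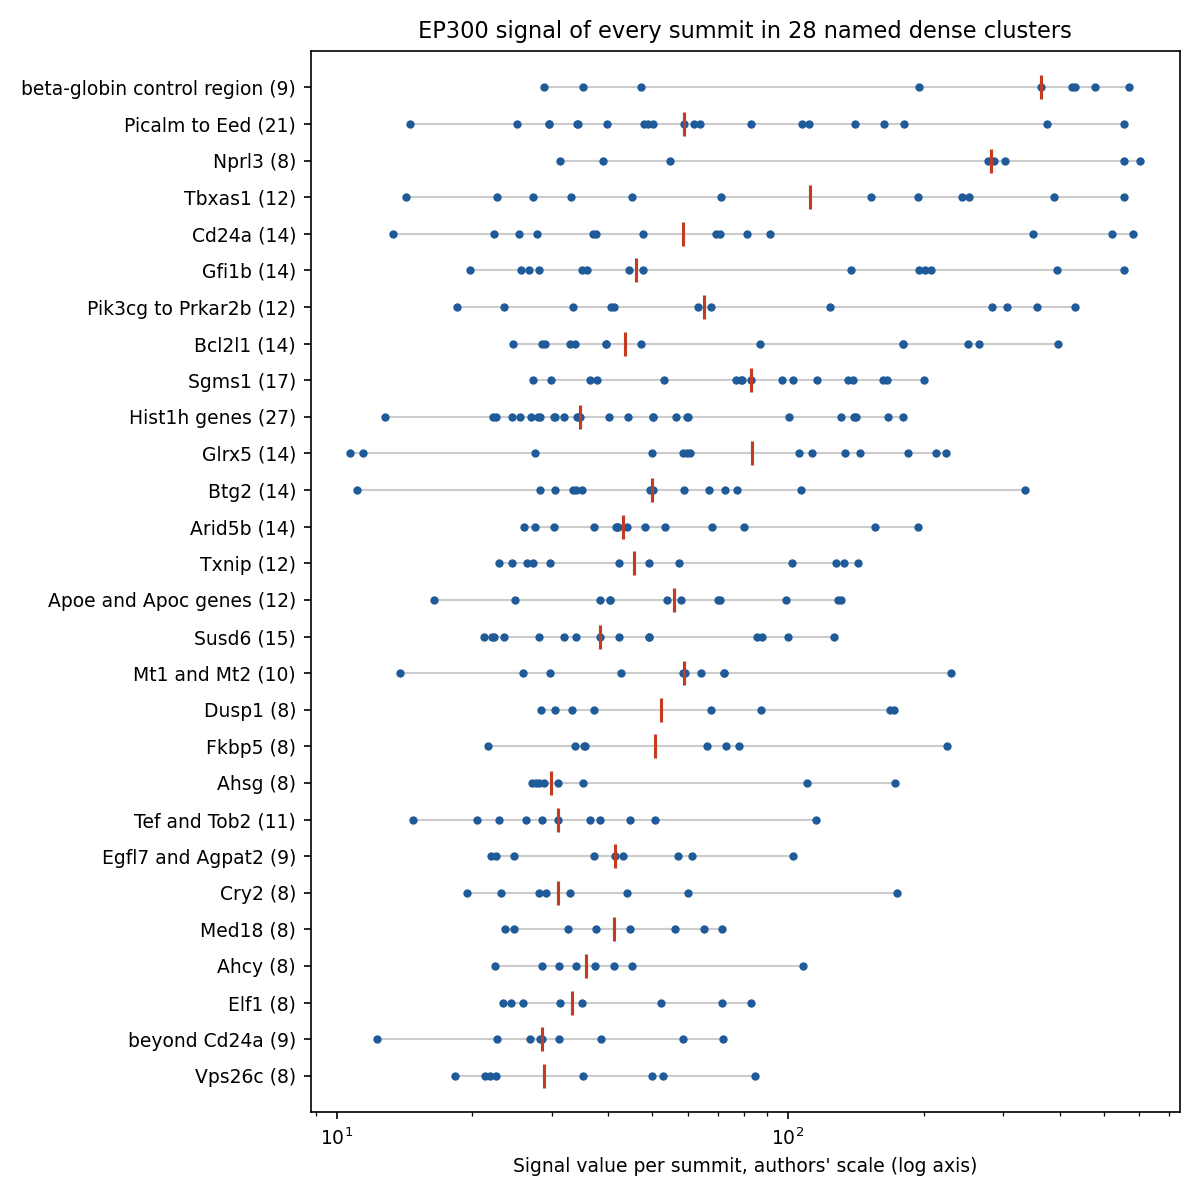
Signal value of every summit (dots, log axis) in the 28 clusters named by rule, ordered by summed signal from highest at the top, with the number of summits in parentheses and the median as a red bar. The beta-globin control region has 6 of its 9 summits above 190, while the 27 summits of the Hist1h cluster lie between 12.8 and 180.

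The strongest cluster was the locus control region of the beta-globin genes, at chr7:103854861-103877310, between Hbb-y, the embryonic beta-like globin gene, and the olfactory receptor gene Olfr66. Its 9 summits summed to 2576 in the reproducible list, 1544 in replicate 1 and 1040 in replicate 2. The 6 strong summits had signals of 195, 363, 433, 426, 478 and 570 in the order of their position, and the other 3 had 28.8, 47.3 and 35.2. All 6 strong summits held a GATA word within 50 bases and the 3 weak ones held none (42.4% of all merged peaks hold one). The third strong summit also held a site of the erythroid factor NF-E2, the letters TGC followed by the AP-1 word TGAGTCA (0.588% of all merged peaks hold it). No summit lay at a promoter, within 1 kb of a protein-coding TSS, where 19.7% of all merged peaks lie.

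A second, weaker cluster lay 26.8 kb away, at chr7:103807011-103828019, over the adult beta-globin genes Hbb-bt and Hbb-bs. Its 9 summits summed to 928 (593 in replicate 1, 342 in replicate 2). The summit at the Hbb-bs promoter had a signal of 204 (replicate 1, 126; replicate 2, 79.6), and the summit at the Hbb-bt promoter had 72.3 (replicate 1, 50.7; replicate 2, 21.2). Both promoter summits held the KLF word CCNCACCC (4.86% of all merged peaks) and the CCAAT letters (13.1% of all merged peaks), and neither held a GATA word. These are near-identical genes, so how the signal divides between them is uncertain.

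The alpha-globin enhancers gave the third strongest cluster, at chr11:32242432-32269138, with 6 of its 8 summits in the body of Nprl3, a housekeeping gene whose introns hold them. Its summed signal was 2149 (1201 in replicate 1, 950 in replicate 2). The summit at 32251088 had the highest signal of any cluster summit, 603 (replicate 1, 317; replicate 2, 281), and the one at 32245816 had 556 (replicate 1, 286; replicate 2, 272). Of the 5 summits above 240, each held a GATA word. The summit at the Nprl3 promoter had 38.9. The embryonic alpha-like gene Hba-x lay 7.26 kb from the cluster and the adult genes Hba-a1 and Hba-a2 lay 14.4 and 27.4 kb from it, so that only Hba-x counted as near.

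**Figure D2:**
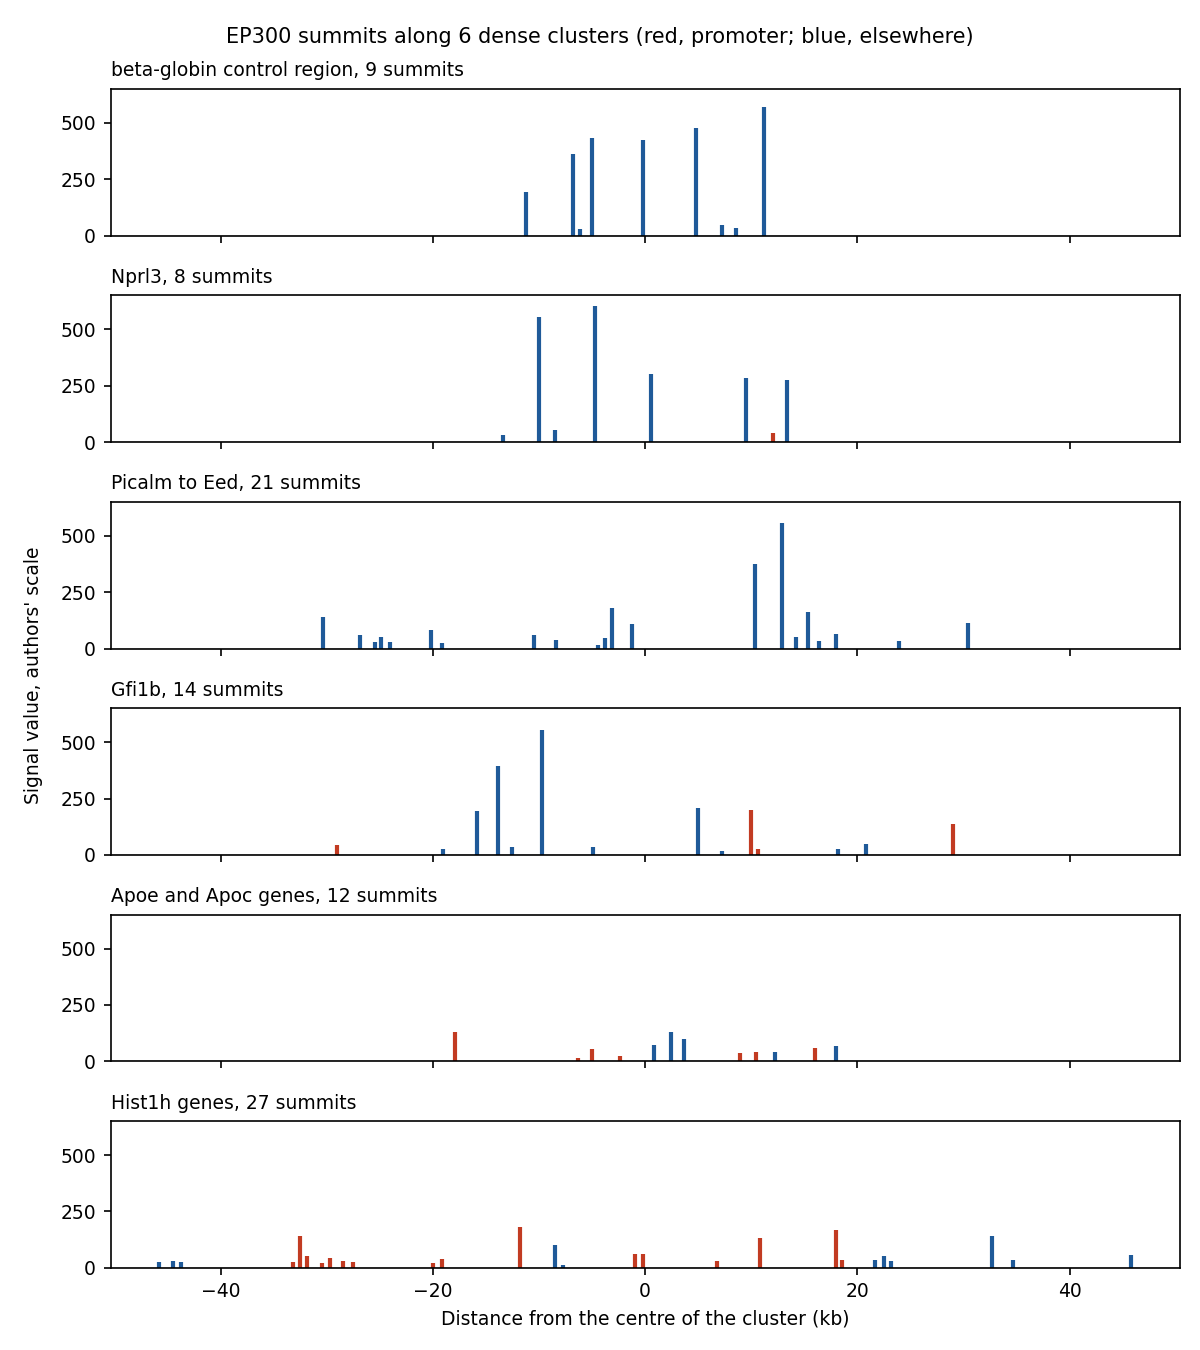
Signal value of each summit against its distance in kb from the centre of the cluster, for 6 clusters, with promoter summits in red and all others in blue. Both globin clusters are short with 5 or more tall summits, the Picalm cluster has 2 tall summits of 375 and 555 among 21, and the Hist1h cluster has 16 promoter summits.

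Genes of the red cell lineage stood at more dense clusters than genes of any other list. Within 10 kb of a cluster lay the TSS of 9 of 46 erythroid genes (19.6%), against 196 of 21728 of all protein-coding genes (0.902%). The 9 genes were Hbb-bt, Hbb-bs, Hbb-y, Hba-x and Nprl3, described above, and Cd24a, Bcl2l1, Car2 and Epb41. They lay at 7 clusters, since globin genes share clusters, so the genes are not independent. The erythroid list was drawn up with earlier results of these data known, and holds Nprl3 for its globin enhancers. The count of 9 was 16 with clusters of 6 or more summits, 5 with stitching at 8 kb, 5 in the conservative list, 3 with clusters of 10 or more summits, 4 with summits within 2.5 kb of a TSS left out before stitching, and 0 in the stronger 50% of merged peaks, from which 18 clusters were built.

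The cluster at Cd24a, which encodes a surface glycoprotein of immature blood cells, held 14 summits at chr10:43575299-43633344 and summed to 1977 (1203 in replicate 1, 764 in replicate 2). Its 3 tall summits lay 29.8, 45.8 and 50.9 kb from the Cd24a TSS, in intergenic sequence, with signals of 582, 523 and 349. Only the middle one of them held a GATA word, and the other 2 held CAGATG (9.66% of all merged peaks). The next cluster began 13.2 kb further on and was among the weakest, with 9 summits that summed to 319 (222 in replicate 1, 99.3 in replicate 2).

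Bcl2l1, which encodes the survival protein Bcl-xL needed by maturing red cells, contained all 14 summits of its cluster, at chr2:152784780-152831640. The cluster summed to 1633 (1050 in replicate 1, 591 in replicate 2). Its strongest summit, in an intron 15.9 kb from the TSS, had a signal of 396 (replicate 1, 246; replicate 2, 151), and both summits at its promoters had 39.5 and 32.9. Car2, the gene of carbonic anhydrase 2, had a 9-summit cluster that summed to 1104 (670 in replicate 1, 444 in replicate 2). A pair of summits 7.18 and 8.53 kb from the Car2 TSS, with signals of 519 and 368, held most of it, and the summit at the promoter had 9.34. Epb41, which encodes protein 4.1R of the red cell membrane skeleton, had a 10-summit cluster that summed to 978 (617 in replicate 1, 361 in replicate 2), with the strongest summit, 289, 1.61 kb from its TSS. At these 3 genes, as at both globin clusters, the strongest summit was not at a promoter.

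Clusters of the red cell genes Zfpm1 and Slc2a1 lay farther from a TSS and were chosen for description after their values were seen. Genes of the hepatocyte lists also lay beyond 10 kb from a cluster, such as Fetub at 17.1 kb and Cebpb at 65.2 kb. All 8 summits of the cluster at chr8:122309507-122330623 lay in the body of Zfpm1, which encodes FOG1, the partner of GATA1, with the nearest Zfpm1 TSS 27.4 kb away. They summed to 1446 (882 in replicate 1, 574 in replicate 2), and 7 of the 8 held a GATA word. An intergenic cluster of 8 summits, 54.4 kb from the TSS of Slc2a1, the glucose transporter gene, summed to 1583 (940 in replicate 1, 640 in replicate 2). Here too 7 of 8 held a GATA word, and the tallest summits had 521 and 510. Which gene such a cluster acts on is not given by its position.

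Gfi1b, a transcriptional repressor gene needed in red cells and megakaryocytes, was the only one of 20 megakaryocyte and platelet genes near a cluster (5%). Its 14 summits, at chr2:28583036-28641118, summed to 1953 (1202 in replicate 1, 752 in replicate 2). The strongest, at 28602348, lay in intergenic sequence towards Gtf3c5 and had a signal of 554 (replicate 1, 312; replicate 2, 242), and the summit at the Gfi1b promoter had 201 (replicate 1, 132; replicate 2, 67.3) and held a GATA and E-box composite (12.8% of all merged peaks hold one).

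The cluster at Tbxas1, the gene of thromboxane A synthase, held 12 summits at chr6:38874677-38929382, 11 of them in the gene body, and summed to 1997 (1235 in replicate 1, 776 in replicate 2). Its tallest summits had 554 and 389, and 9 of the 12 held a GATA word. Tbxas1 was in none of the 24 gene lists. The intergenic cluster between Picalm and Eed, at chr7:90019752-90080569, was second in signal at 2256 (1400 in replicate 1, 893 in replicate 2) and second in size at 21 summits. Picalm encodes a clathrin adaptor and Eed a subunit of the Polycomb complex PRC2. Its strongest summit had 555 (replicate 1, 320; replicate 2, 239), 67.2 kb from the Picalm TSS. The 12 summits of the intergenic cluster between Prkar2b and Pik3cg, a gene for a phosphoinositide kinase of white blood cells, summed to 1790 (1082 in replicate 1, 703 in replicate 2), and all lay more than 27 kb from a TSS.

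None of the 20 genes of blood stem and progenitor cells, the 18 of granulocytes, the 19 of macrophages and Kupffer cells and the 18 of lymphoid cells had a TSS within 10 kb of a dense cluster, which for lists of this length cannot be told from the 0.902% of all genes. Of 19 endothelial genes 1 did (5.26%), Egfl7, which encodes a secreted factor of blood vessels. Its 9 summits, shared with Agpat2, an enzyme of phospholipid synthesis, were weak and summed to 412 (282 in replicate 1, 126 in replicate 2). The summit at the Egfl7 promoter had 24.8.

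Of 26 genes for secreted proteins of hepatocytes 2 had a TSS within 10 kb of a cluster (7.69%), Apoe and Ahsg, against 0.902% of all protein-coding genes. The counts were 0 of 26 hepatocyte transcription factors, 0 of 26 urea cycle and amino acid genes, 0 of 18 glucose genes, 0 of 30 lipid genes and 0 of 21 bile acid and xenobiotic genes. At the share of all genes, lists of this length need not hold any. These genes did have summits nearby (24 of the 26 urea cycle and amino acid genes and 22 of the 30 lipid genes), but in stretches of fewer than 8. The nearest miss was Dgat2, which encodes an enzyme of triglyceride synthesis. Its TSS lay 10.1 kb from a cluster of 11 summits, of which 3 lay in the Dgat2 gene body.

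The cluster over Apoe, Apoc1, Apoc4 and Apoc2, genes for apolipoproteins of circulating lipid particles, held 12 summits at chr7:19665166-19701077 and summed to 773 (506 in replicate 1, 262 in replicate 2). Its strongest summit was the intergenic one shown above, with a signal of 131 (replicate 1, 87.7; replicate 2, 43.9), followed by 129 for the summit at the promoter of Clptm1, a gene at the edge of the cluster. The Apoe promoter summit had 58.0. Of the 12 summits 1 held a GATA word and 3 held the DR1 element, AGGNCA repeated after 1 base (0.355% of all merged peaks). The Ahsg cluster, at the gene of fetuin-A, a glycoprotein secreted into the plasma, held 8 summits at chr16:22876906-22901234 and summed to 461 (308 in replicate 1, 159 in replicate 2). The summit at the Ahsg promoter had 110 (replicate 1, 72.8; replicate 2, 38.4), below an intergenic one of 173 (replicate 1, 106; replicate 2, 66.1) that lay 9.64 kb away and held a GATA word. Of the 20 summits of both clusters 5 held a GATA word (25%, against 42.4% of all merged peaks), most of them in the Ahsg cluster. No Ahsg summit held the DR1 element.

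The remaining listed genes near clusters respond to stress, hormones or time of day. Mt1 and Mt2, the metallothionein genes of the acute phase and coagulation list (2 of 26, 7.69%), shared a 10-summit cluster that summed to 668 (448 in replicate 1, 238 in replicate 2). The summit at the Mt1 promoter was the strongest, with 230 (replicate 1, 150; replicate 2, 83.6), and it held the glucocorticoid receptor element, GNACA and TGTNC 3 bases apart (1.68% of all merged peaks). Of 16 glucocorticoid and stress response genes 2 lay near clusters (12.5%). Fkbp5, a glucocorticoid-induced gene whose protein restrains the receptor, contained all 8 summits of its cluster, and the strongest, in an intron 21.4 kb from the TSS, had 225 (replicate 1, 123; replicate 2, 101) and held the same element. Txnip, which encodes an inhibitor of thioredoxin, had 12 summits that summed to 785 (528 in replicate 1, 271 in replicate 2), with the 4 tallest within 6.45 kb of its TSS. All of the Fkbp5 summits but 1 and all of the Txnip summits but 1 lacked a GATA word.

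Of 20 immediate early genes 2 had clusters (10%). The cluster at Btg2, which encodes an antiproliferative protein, held 14 summits and summed to 989 (668 in replicate 1, 318 in replicate 2), with 336 at its tallest, 5.80 kb from the Btg2 TSS. The 8 summits at Dusp1, the gene of a phosphatase that inactivates MAP kinases, summed to 624 (406 in replicate 1, 220 in replicate 2). Of 19 circadian genes 2 had clusters (10.5%), Cry2, which encodes a repressor of the clock, with 411 (255 in replicate 1, 151 in replicate 2), and Tef, which encodes a clock-controlled transcription factor, with 430 (295 in replicate 1, 134 in replicate 2). Altogether 21 of 483 listed genes lay near 18 of the 123 clusters, so most clusters had no listed gene.

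The cluster with the most summits was built mostly of promoters. It covered the replication-dependent histone genes of the Hist1h group at chr13:23517729-23609332, with 27 summits of which 16 lay within 1 kb of a TSS, and summed to 1607 (1058 in replicate 1, 603 in replicate 2). The strongest was at the promoter of Hist1h4f, with 180 (replicate 1, 114; replicate 2, 70.2), only 11.2% of the sum, the lowest such share of the 123 clusters. In 5 clusters the strongest summit was nearest a histone gene. Together they had 63 summits, 42 of them at promoters, which is 42 of the 184 promoter summits of all clusters. Of those 42, 21 held the CCAAT letters, which NF-Y binds (13.1% of all merged peaks hold them), and 2 held the octamer ATGCAAAT of OCT1 (0.429% of all merged peaks). A GATA word was held by 14 of the 63. In 1 of the 5, at Hist1h4k, a pair of summits shared at least 20% of their 16-base words. The cluster of 27 summits fell just short, with 19.9% for its most alike pair.

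The other large clusters lay within single genes or beside them. Sgms1, the gene of a sphingomyelin synthase, contained all 17 summits of its cluster, which summed to 1621 (1037 in replicate 1, 599 in replicate 2), and its tallest summit had 200. Susd6 contained all 15 of its cluster (761 in all, 493 in replicate 1 and 269 in replicate 2), and Arid5b, which encodes a DNA-binding protein, all 14 of its own (889 in all, 590 in replicate 1 and 296 in replicate 2). The 14 summits around Glrx5, a gene needed for iron-sulphur clusters and so for heme synthesis, summed to 1396 (886 in replicate 1, 499 in replicate 2). In 26 of the 123 clusters every summit lay in 1 gene body, and in 42 at least 75% did. These counts take any protein-coding gene entry, including very long ones such as Gm20388, which spans the Zfpm1 and Cbfa2t3 clusters.

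At the low end of summed signal stood the clusters at Vps26c with 306 (233 in replicate 1, 86.5 in replicate 2), beyond Cd24a with 319, at Elf1 with 347 (222 in replicate 1, 113 in replicate 2), at Ahcy with 348 (202 in replicate 1, 140 in replicate 2) and at Med18 with 356 (233 in replicate 1, 116 in replicate 2). Vps26c encodes a subunit of the endosomal retriever complex, Elf1 an ETS factor, Ahcy the hydrolase of S-adenosylhomocysteine and Med18 a subunit of Mediator. No summit of these 5 clusters was above 108. The rule asked for a number of summits and set no level of signal for any cluster.

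Set against all other peaks, cluster peaks were somewhat stronger. The median signal of the 1194 cluster peaks was 49.7 in the reproducible list, against 40.4 for the 23308 other peaks. It was 33.3 against 27.4 in replicate 1 and 18.1 against 13.97 in replicate 2. On the log2 scale the cluster peaks were higher by 0.28 in replicate 1 and by 0.37 in replicate 2 (0.30 in the reproducible list, SD 0.07 over 2 replicates). Because signal decided which overlapping peaks were kept, and peaks of a cluster are not independent, this is given without a test. The 504 peaks of stretches of 7 summits, just outside the limit, had a median of 48.9, close to that of the clusters. Of cluster peaks 32.7% were among the strongest 20% of all merged peaks, against 30.8% of peaks in stretches of 7 summits and 19.3% of all other peaks.

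Within a cluster the signal was uneven. The strongest summit held 29.5% of the summed signal in the median cluster, and 70.3% in the highest, at the kinase gene Hipk1, where a summit of 585 stood beside 7 of 71.6 or less. In order of rank within the cluster, the median signal over the 123 clusters was 227, 144, 92.1, 67.6, 50.9, 42.3, 35.5 and 28.9 for ranks 1 to 8, an order that the ranking itself imposes. A summit of 240 or more was present in 59 clusters, and 10 clusters had at least 3. The strongest summit was the outermost one in 22 clusters.

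**Figure D3:**
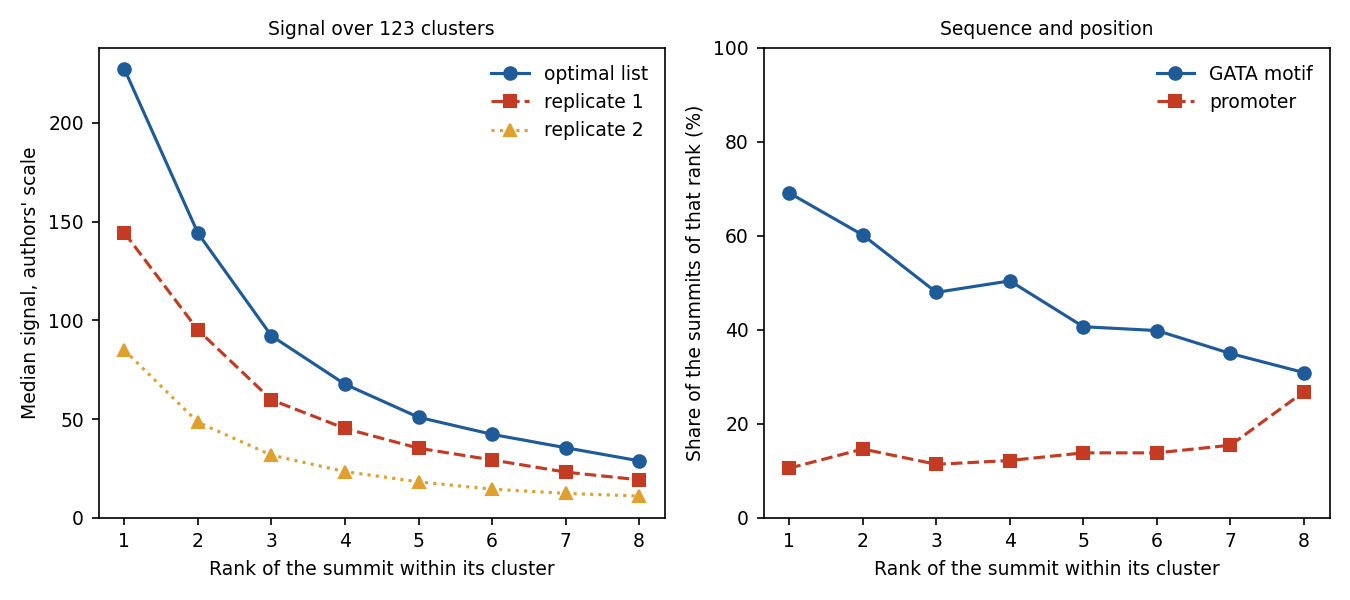
Left, median signal of the summit of each rank over the 123 clusters, in the reproducible (optimal) list and in each replicate. Right, percentage of those 123 summits that hold a GATA motif or lie at a promoter; the GATA share is 69.1% at rank 1 and 30.9% at rank 8, and the promoter share is 10.6% and 26.8%.

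Cluster peaks lay at promoters less often than other peaks by count, though the distance chosen mattered. Within 1 kb of a protein-coding TSS lay 15.4% of cluster peaks (184 of 1194, 95% exact interval 13.4 to 17.6%), against 19.9% of other peaks (interval 19.4 to 20.4%), and 19.7% of all merged peaks. In stretches of 7 summits the share was 16.7%. The difference between cluster peaks and other peaks, −4.48 percentage points, was −0.96 without replicate 1. Within 5 kb the shares were 35.3% and 34.7%. More than 50 kb from any TSS lay 13.7% of cluster peaks and 21.1% of other peaks. Without the 5 histone clusters, the promoter share of cluster peaks was 12.6%. EP300 binding alone does not show enhancer activity, and by position the clusters mix promoters with distal sites. All intervals cover the counting of peaks only.

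The strongest summit of a cluster was intergenic in 55 clusters, intronic in 52, at a promoter in 13 and exonic in 3. Its distance to the nearest TSS was 11.9 kb in the median and more than 50 kb in 17 clusters. Of the 108 cluster peaks with a signal of 240 or more 0 lay at a promoter, which allows a share of up to 3.36% (95% exact interval), against 9.92% of 746 other peaks of that signal. There were 47 clusters with no promoter summit at all, 44 with no protein-coding TSS inside and 31 with none within 10 kb.

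The GATA word was common in clusters but hardly more common than elsewhere. It was held by 530 of 1194 cluster peaks (44.4%, 95% exact interval 41.5 to 47.3%), against 42.3% of other peaks (interval 41.6 to 42.9%) and 42.4% of all merged peaks. By size of stretch the share was 39.6% for lone summits, 43.7% for stretches of 2 to 3, 45.3% for 4 to 7 and 44.4% for dense clusters. In 122 of 123 clusters at least 1 summit held it. The exception was Trib1, which encodes a pseudokinase, with 0 of 8 summits, and at Fhdc1, which encodes a formin-family protein, all 9 of 9 held it. Both genes were picked out after their values were seen.

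The GATA share followed the signal of the summit. Among cluster peaks it was 31.2% at a signal under 30, 35.4% from 30 to 60, 43.3% from 60 to 120, 66.2% from 120 to 240 and 84.3% at 240 or more. Among other peaks it was 30.03%, 36.8%, 51.7%, 77.6% and 88.9% in the same classes. From 60 upwards the share was lower in cluster peaks than in other peaks of like signal, and in the classes from 60 to 120 and from 120 to 240 the exact intervals did not overlap. By place, a GATA word was held by 25% of promoter summits in clusters (18.8% of other promoter summits), 51.9% of intronic ones (51.5%), 44.9% of intergenic ones (44.4%) and 30% of the 20 exonic ones (45.1%).

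**Figure D4:**
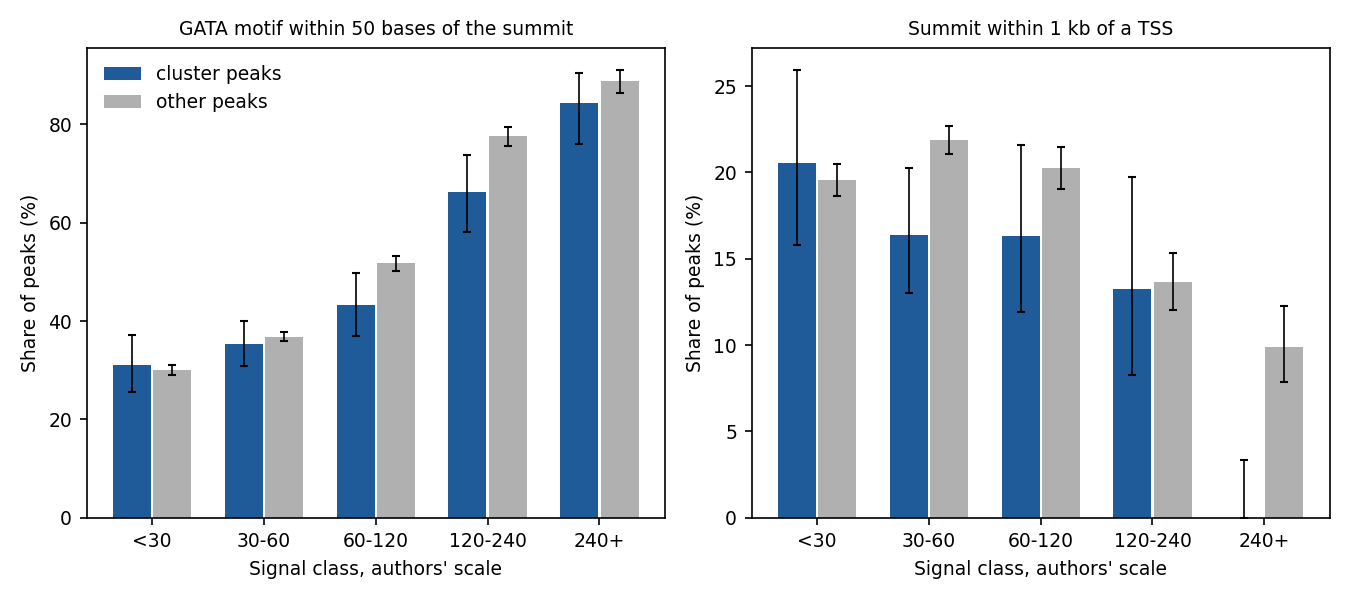
Share of peaks in percent that hold a GATA motif (left) or lie within 1 kb of a TSS (right), by class of signal value, for cluster peaks (blue) and other peaks (grey), with 95% exact intervals that cover counting only. The GATA share climbs with signal in both, to 84.3% and 88.9%, and no cluster peak of 240 or more is at a promoter.

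Of the other sequences of the blood lineage, the KLF word was more frequent by count in cluster peaks than in other peaks. The ETS word was less frequent, and for both the exact intervals did not overlap. In stretches of 4 to 7 summits the KLF share was 5.37% (interval 4.74 to 6.07%). The ETS share there was 1.84% (interval 1.47 to 2.28%). Both intervals overlapped those of the clusters. In stretches of 7 summits the shares were 5.16% and 2.58%. With 28 motifs searched and peaks of a cluster not independent, this is no test. The GATA and E-box composite, which needs only CTG of the E-box, was held by 12.2% of cluster peaks (12.9% of other peaks, 12.8% of all). The TAL1 E-box CAGATG was held by 9.63% (9.66% of other peaks, 9.66% of all) and the E-box CAGCTG by 9.63% (7.93% of other peaks, 8.01% of all). The AP-1 word was held by 5.28% of cluster peaks (4.54% of other peaks, 4.58% of all). The KLF word CCNCACCC was held by 6.87% of cluster peaks, against 4.76% of other peaks (4.86% of all), with exact intervals of 5.499 to 8.45% and 4.49 to 5.04%. The RUNX word TGTGGTT was held by 2.60% (3.68% of other peaks, 3.62% of all), the PU.1 word GAGGAAGT by 1.59% (1.68% of other peaks, 1.67% of all) and the ETS word CCGGAAG by 1.42% (interval 0.83 to 2.27%), against 2.87% of other peaks (interval 2.66 to 3.09%) and 2.8% of all. All words were searched on both strands within 50 bases of the summit, and the GATA word is part of the composite.

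Among sequences of liver factors, the C/EBP word TTGCNNAA was held by 8.04% of cluster peaks (9.41% of other peaks, 9.34% of all), the FOXA words TGTTTAC and TATTTAC by 4.19% (4.96% of other peaks, 4.92% of all) and the HNF4 words CAAAGTCCA and CAAAGGTCA by 0.921% (1.47% of other peaks, 1.44% of all). The DR1 element was held by 11 cluster peaks, 0.921% (interval 0.461 to 1.64%), against 0.326% of other peaks (interval 0.257 to 0.408%) and 0.355% of all. These intervals did not overlap either, and 3 of those 11 peaks were in the Apoe cluster. The glucocorticoid receptor element was held by 2.09% (1.66% of other peaks, 1.68% of all).

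The clusters were ordered alike in both replicates. Over the 123 clusters the summed signals of the replicates had a Spearman correlation of 0.98 and, on the log2 scale, a Pearson correlation of 0.98, a description in which large clusters sum more peaks in both. Of the 10 clusters highest in replicate 1, 8 were among the 10 highest in replicate 2. The sum was higher in replicate 1 in every cluster, by 0.84 on the log2 scale in the median (SD 0.19), from 0.34 at Nprl3 to 1.46 at Slc25a25, a carrier gene; the scales of the lists are not stated, so this offset is no measure of binding. The strongest summit was the same one in the reproducible list and replicate 1 in 115 clusters, and in replicate 2 in 108.

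**Figure D5:**
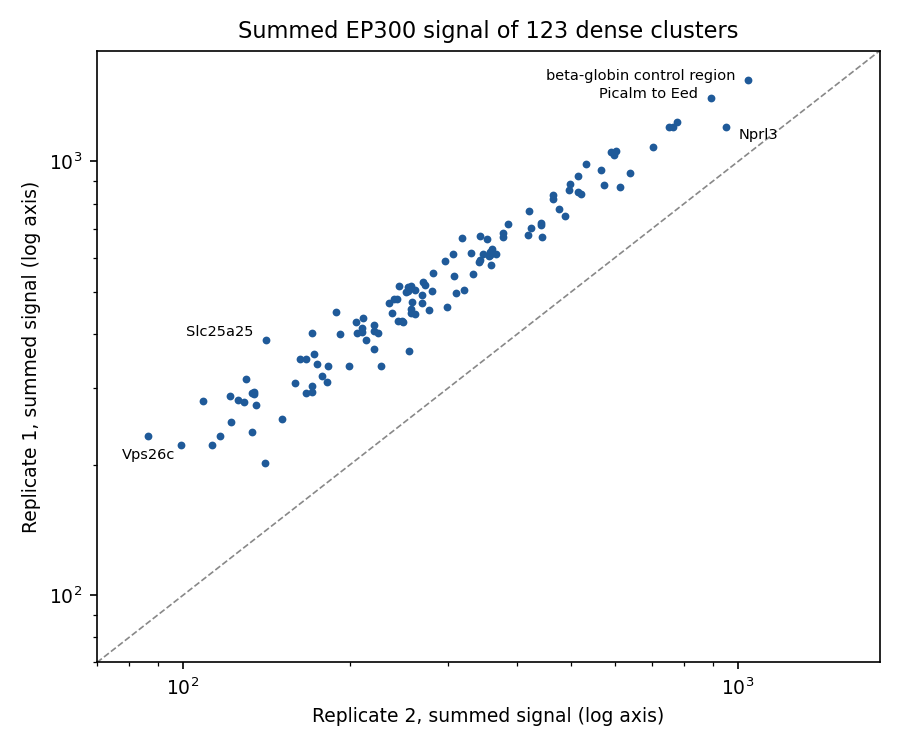
Summed signal value of each of the 123 clusters in replicate 1 against replicate 2, both axes on a log scale, with the line of equality dashed. All clusters lie above the line, in a narrow band from Vps26c to the beta-globin control region.

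Of cluster peaks 78.2% overlapped the highest peaks of each replicate, as many as the reproducible list holds, against 67.8% of other peaks (68.3% of all). The conservative list contained 83.2% of cluster peaks and 77.3% of other peaks (77.5% of all). In stretches of 7 summits these shares were 76.6% and 83.3%, close to those of the clusters. In 14 clusters every summit was among the highest of both replicates, and in each of the 123 at least 50% were. When the rule was applied to each replicate's own highest peaks, 97 of the 123 clusters overlapped a dense cluster of replicate 1, 90 one of replicate 2, 75 both and 11 neither. Of the 11, the Car2 cluster was the one near an erythroid gene. With the rule applied to the conservative list, 66 of the 123 overlapped a dense cluster. Summit sequence marked as repeat was held by 10.8% of cluster peaks, against 8.997% of other peaks (9.08% of all).

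Some clusters contained microRNA genes, and part of these have known roles in blood and vessels. Of 1005 RefSeq hairpins 13 (1.29%) lay inside a dense cluster, a look taken after the clusters were known. The 13 are not all separate places, since some are opposite strands of the same place, such as miR-451a and miR-451b. The hairpins of miR-144 and miR-451a, both abundant in red cell precursors, lay in an 8-summit cluster near Eral1 at chr11:78060532-78087994 that summed to 1137 (712 in replicate 1, 441 in replicate 2). The nearest summit was 0.384 kb from the miR-144 hairpin, with 117 (replicate 1, 76.3; replicate 2, 39.1), and taller ones of 425 and 343 lay farther out, both with a GATA word. miR-142, of blood cells generally, lay in an 11-summit cluster near Supt4a that summed to 1048 (670 in replicate 1, 378 in replicate 2). miR-21a lay in a 13-summit cluster of 1005 (627 in replicate 1, 361 in replicate 2), most of it in Vmp1, miR-22 in a cluster of 523 near Wdr81, and miR-126a, of endothelial cells, in the Egfl7 cluster. The other hairpins included miR-200c and miR-141 in a cluster of 449 near Emg1, miR-5123 near B4galt1 and miR-3069 in the Glrx5 cluster. Mature strands are shown from RefSeq (GRCm38.p6) with the seed, bases 2 to 8, in capitals, because the seed sets which messages a microRNA recognises; no seed was shared among those shown.
miR-144-3p: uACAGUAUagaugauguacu
miR-451a: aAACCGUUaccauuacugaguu
miR-142a-3p: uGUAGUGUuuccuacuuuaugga
miR-21a-5p: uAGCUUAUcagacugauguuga
miR-22-3p: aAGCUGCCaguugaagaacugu
miR-126a-3p: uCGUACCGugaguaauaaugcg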

How the data were processed

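EP300 was measured by ChIP-seq in 2 replicates of 1 group, so no groups were compared and no test was made. The peak lists were used as the authors deposited them on mm10: 1 list of 300000 peaks per replicate, 1 pooled list, and an optimal and a conservative list filtered for reproducibility (IDR, irreproducible discovery rate). The signal value of each peak is a score that the authors deposited, with its scale not stated. The other deposited columns, a −log10 q-value or p-value score and an authors' IDR score, chose nothing here. The aligner, caller, IDR threshold and software versions behind them: not given in the sources used here.

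Clusters were built on the optimal (reproducible) list. A replicate value was the highest replicate peak overlapping a merged peak by at least 1 base, and a replicate peak shared by 2 summits was summed once (1 in replicate 1, 2 in replicate 2). A replicate value was absent for 3 cluster peaks in replicate 1 and 35 in replicate 2. Summits were placed on protein-coding TSSs of GENCODE M21 (GRCm38, the assembly of mm10) as promoter (within 1 kb), exon, intron or intergenic. Very long entries such as Gm20388 counted as genes, so some summits placed as intron lie outside the better known genes nearby. Sequence came from the GRCm38.p6 genome, and 24 gene lists (483 of 489 symbols matched) and 28 motifs were used. Coordinates are 1-based; intervals are 95% Clopper-Pearson. Clusters were named by rule (10 with most summits, 10 highest and 5 lowest in summed signal, and up to 2 per gene list); others named are said to have been picked after their values were seen, or are examples of counts. Members, lists and rules were chosen with earlier results of these data known. Columns belonging to other series numbered 0. The stitching was tested on simulated data. Alternatives were the stitching distance, the number of summits, merging, the list used, each replicate alone, the strongest peaks and the TSS distance. Python 3.11.15, pandas 2.3.3, numpy 2.4.6 and scipy 1.17.1 were used.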

Additional observations from a re-analysis of the deposited data

How the results depend on the processing

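The number of dense clusters, 123 as reported, was 53 with stitching at 8 kb, 185 at 15 kb, 335 with 6 or more summits, 44 with 10 or more, 18 from the stronger 50% of merged peaks and 56 when summits within 2.5 kb of a TSS were left out first. It was 138 to 140 from a single replicate's highest peaks. The promoter share of cluster peaks minus that of other peaks, −4.48 percentage points, was −3.60 to −0.96 from a single replicate, the −0.96 being without replicate 1. It was −7.33 without the histone gene clusters (an alternative chosen after seeing the data) and turned to 0.57 with promoters taken as within 5 kb. The median log2 signal difference, 0.30, was 0.15 with no merging, 0.38 in the stronger 50% of peaks and 0.28 to 0.34 from a single replicate. The GATA difference, 2.12 points, turned to −2.20 with 10 or more summits and to −1.50 with no merging, and was 1.03 to 1.24 from a single replicate, so its direction is not settled. The count of erythroid genes within 10 kb, 9, was 5 with stitching at 8 kb, 16 with 6 or more summits, 3 with 10 or more, 5 in the conservative list, 0 in the stronger 50% of peaks, 4 with summits near a TSS left out and 9 to 11 from a single replicate. The other 38 planned or added settings kept their direction, and counts stayed within 1.5 times. The promoter difference could not be computed with summits near a TSS left out. The causes were not tested. No paired analysis was possible because there is 1 group only. Depth is unknown, so weak summits missing from a list cannot be told from absent binding.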

Other observations

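The authors' pooled list, which no comparison used, was also denser inside the clusters than over the genome. After merging it held 283704 peaks, of which 2272 (0.801%) lay inside dense clusters. That is 5.32 merged pooled peaks per 10 kb inside the clusters and 1.08 per 10 kb over the genome. The clusters held 4.87% of the merged reproducible peaks, so the longer pooled list was less concentrated in them. The clusters were placed where reproducible peaks are dense, so a higher density there follows in part from the rule, and the list holds many weak peaks.

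Several clusters had a close neighbour. In 5 pairs the gap between clusters was under 50 kb: 13.2 kb between the Cd24a cluster and the next, 17.2 kb between a pair at Mtss1, 26.8 kb between the beta-globin clusters, 41.2 kb between a pair at Pim1, which encodes a survival kinase, and 41.8 kb between clusters beyond Cebpb and Ptpn1. With 12 kb as the stitching distance, each pair counts as separate clusters.

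Some clusters at regulators, with no listed gene within 10 kb, were picked after their values were seen. The cluster at Cbfa2t3, whose product ETO2 is a corepressor in TAL1 complexes, had 8 summits and a summed signal of 1520 (988 in replicate 1, 532 in replicate 2). At Zbtb16, the gene of the transcription factor PLZF, 8 intronic summits summed to 1276 (820 in replicate 1, 465 in replicate 2), 3 of them with a GATA word. Zbtb16 is in the glucocorticoid and stress response list, but its TSS lay 86.5 kb from the cluster, so it did not count as near. A cluster 234 kb from the nearest TSS, that of Myc, summed to 967 (606 in replicate 1, 356 in replicate 2).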
